A study of Mus musculus with 15 samples.

Results

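The medulloblastomas labelled R-type that arose in mice given 1.5 Gy of X-rays were set against normal cerebellum. The samples were chosen by their labels: the 3 tumours MB10, MB11 and MB12 and the 3 samples Normal cerebellum 1 to 3, which make 6 of the 15 samples of the study. The study measured expression on one-colour Agilent mouse arrays, with 1 array of Cy3-labelled total RNA for each sample, in 12 medulloblastomas of mice heterozygous for the SHH receptor gene Ptch1 (Ptch1+/-) and in 3 normal cerebella. The other tumours were R-type after 0.2 Gy (MB7 to MB9) and S-type after 0.2 Gy or without irradiation (MB4 to MB6 and MB1 to MB3). The labels do not say what R-type and S-type stand for. MB10 to MB12 came from Ptch1+/- C3B6F1 females that were irradiated on postnatal day 1 and watched daily until they were moribund. Their ages were 87, 101 and 103, in a unit the labels do not give. The ages were 127, 106 and 113 for MB7 to MB9 and 160, 173 and 172 for MB1 to MB3. The normal cerebella were from unirradiated females labelled with ages of 103, 103 and 113, and their genotype and strain are not given. Tumour growth, radiation and any difference of genotype therefore cannot be told apart in this comparison. Nothing says how the tissue was dissected, and each sample is taken as a mouse of its own. P-values and SEs rest on the spread between samples within all 5 groups of the study (15 samples), not within these 6 alone.

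In the SHH pathway the receptor PTCH1 holds the membrane protein SMO inactive, and the ligand SHH, or loss of PTCH1, frees SMO to switch on the GLI transcription factors. In the newborn cerebellum, Purkinje cells release SHH and the precursors of granule neurons in the external granular layer divide in answer to it, before they leave the cell cycle, migrate inwards and mature. Medulloblastomas of Ptch1+/- mice are understood to arise from these precursors.

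All levels below are log2 processed signals less the 75th percentile of their array, so that 0 stands for that percentile. A change is the mean of the 3 tumours minus the mean of the 3 normal cerebella on that log2 scale, with its standard error (SE). Adjusted p-values are from limma with Benjamini-Hochberg adjustment over 21661 genes, and a gene is said to have risen or fallen where that value was below 0.05. A gene whose probe was not well above the array's background on any array of a group has only a bound there. Its fold change is then given as at least so many fold, with the dim group raised to the lowest signal well above background on each array.

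Every tumour array was dimmer than every array of normal cerebellum and had slightly fewer probes well above background. Between 60.9% and 62.1% of probes were well above background in the tumours, against 63.5% to 64.6% in the normal cerebella, and no probe was saturated. Each array's own 75th percentile lay at 1184 to 1320 intensity units in the tumours and 1518 to 1564 in the normal cerebella. Across genes, which are not independent replicates, Pearson's r was 0.981 to 0.988 between tumours and 0.990 to 0.992 between normal cerebella. Pairs of a tumour with a normal cerebellum gave 0.773 to 0.808. The median SD of a gene was 0.171 log2 units among the tumours and 0.108 among the normal cerebella. The female labels fitted the sex-linked genes: Xist was at 0.13, 0.70 and 1.02 in the tumours and at 0.10, 0.00 and 0.11 in the normal cerebella, and no Y-linked gene on the list used for this check was well above background on any of the 6 arrays. Among the other tumours, which enter the shared spread, Xist was lowest in MB6 (-7.14), MB3 (-4.21) and MB9 (-4.04). The Y-linked gene Eif2s3y was at 1.70 in MB6 and not well above background in MB3 or MB9.

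Most genes differed between these tumours and normal cerebellum. Of the 21661 genes tested, 8916 (41.2%) rose and 7236 (33.4%) fell, which is 74.6% in all. Changes of at least 2-fold were seen in 5306 genes upwards (24.5%) and 4718 downwards (21.8%). Changes of at least 16-fold were seen in 580 upwards (2.68%) and 822 downwards (3.79%). The 3 tumours lay wholly above or below the 3 normal cerebella in 17204 genes (79.4%). For 2412 genes (11.1%) the 95% interval of the change lay within 0.5 log2 units of 0. The median change of all genes was 0.145. Without scaling between arrays 15517 genes passed, 44.0% of them higher, against 55.2% with it, and the median of all genes moved to -0.15. Small changes are therefore read only relative to these medians. Counts of genes that rose or fell in a list are read beside the 41.2% and 33.4% of all genes. Each of 3 slides held 1 of these tumours and 1 normal cerebellum, and with slide as a block 16121 genes passed.

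Ptch1 itself did not differ. Its signal was -3.15, -2.71 and -3.06 in MB10, MB11 and MB12, against -3.03, -3.20 and -3.33 in the normal cerebella, so the groups overlapped. The change was 0.21 ± 0.17 (SE; adjusted p = 0.275), with a 95% interval of -0.16 to 0.58, and it was -0.09 without scaling between arrays. The sources used here do not say whether its probe lies within what the targeting removed, so its level does not check the genotype.

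Other receptors of the pathway stood well apart. Of 7 receptors, co-receptors and decoys tested, 5 rose, 1 fell and 1, Ptch1, did not pass, with a median change of 1.45. Smo, the signal transducer that PTCH1 restrains, was at 5.07, 5.45 and 5.16 in the tumours, against 1.96, 2.11 and 1.74 in the normal cerebella (change 3.29 ± 0.27, adjusted p = 2.76e-07). All 3 tumours were high for Smo and no value overlapped. The co-receptors Boc (1.45 ± 0.16) and Gas1 (1.44 ± 0.14) rose together, by 2.73-fold and 2.72-fold. Cdon, the third co-receptor for SHH, moved the other way, at -2.63, -2.87 and -3.71 in the tumours against 1.36, 1.11 and 1.43 in the normal cerebella (-4.37 ± 0.62, adjusted p = 3.95e-05). Hhip, a decoy receptor that binds SHH, rose 4.32-fold (2.11 ± 0.32, adjusted p = 7.66e-05) and is named here after its values were seen.

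**Figure D1:**
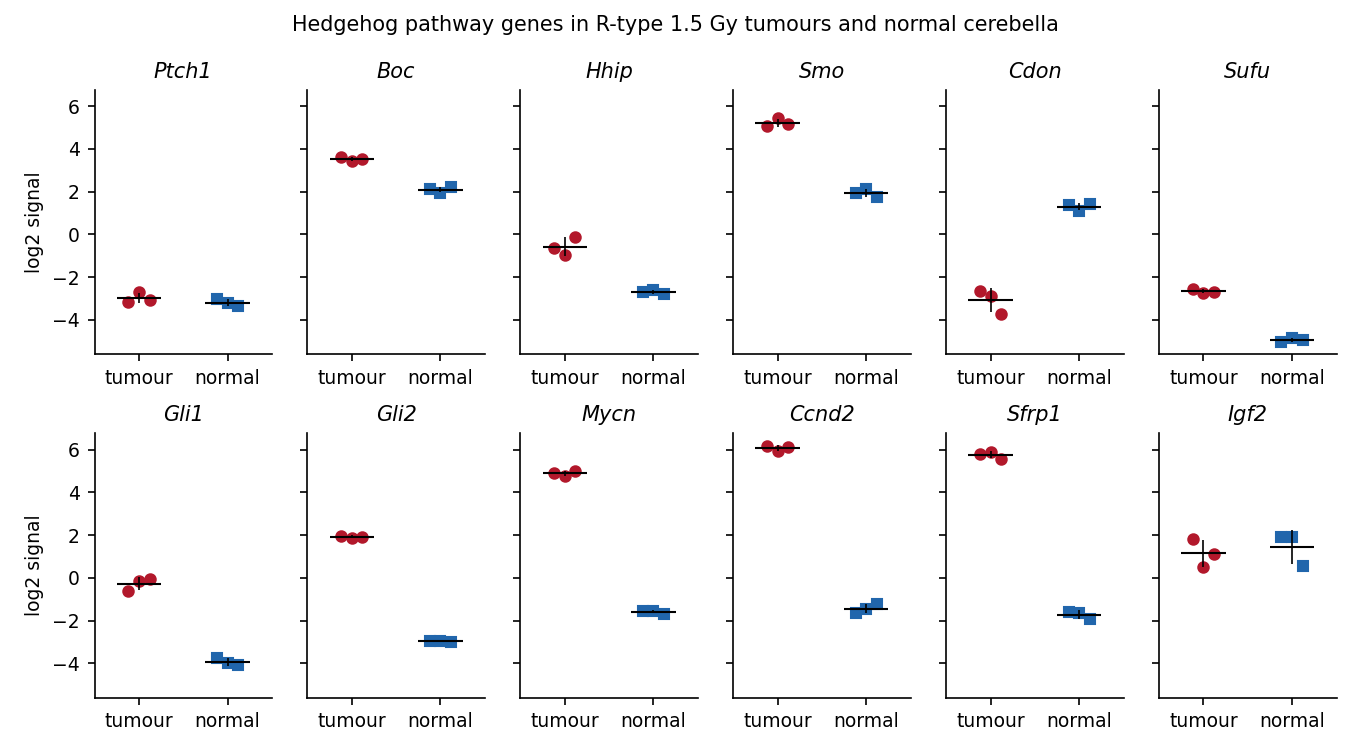
Log2 signal of SHH pathway genes on each array, as the log2 processed signal minus the 75th percentile of its array (0 is that percentile), with the 3 R-type 1.5 Gy tumours left of the 3 normal cerebella for each gene. Points are arrays, horizontal lines group means and vertical lines ± 1 SD. Ptch1 overlaps between the groups, while Gli2, Mycn and Ccnd2 lie far above in all 3 tumours and Cdon lies below.

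Among transducers and GLI factors, 5 of 7 tested rose and 2 fell (median 1.21). Gli2, the main activator of SHH target genes, was at 1.98, 1.86 and 1.93 in the tumours, against -2.97, -2.96 and -2.99 in the normal cerebella (4.90 ± 0.14, adjusted p = 4.43e-11). Gli1, a target and an amplifier of the signal, rose 12.6-fold (-0.63, -0.14 and -0.06 in the tumours, against -3.73, -3.99 and -4.07). The GLI inhibitor Sufu (2.29 ± 0.17) and the kinase gene Stk36 (1.21 ± 0.13) rose as well. Spop, whose product marks GLI proteins for degradation, fell (-1.77 ± 0.15, adjusted p = 3.77e-07). Gli3, mostly a repressor of the pathway, was at -3.69, -5.17 and -4.02 in the tumours, well above background in 2 of the 3, and at -1.39, -1.34 and -1.56 in the normal cerebella (-2.87 ± 0.63, adjusted p = 0.00131). Gli3 was picked out after its values were seen.

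Of 10 SHH target genes tested, 7 rose, 1 fell and 2 did not pass, with a median change of 3.35. Mycn, the transcription factor through which SHH drives precursor division, was at 4.92, 4.76 and 4.99 in the tumours, against -1.55, -1.55 and -1.67 in the normal cerebella (6.48 ± 0.09, adjusted p = 1.55e-13). Ccnd2, the D-type cyclin of granule neuron precursors, was at 6.14, 5.93 and 6.14 in the tumours and -1.64, -1.48 and -1.20 in the normal cerebella (7.51 ± 0.22, adjusted p = 5.2e-11). The 3 tumours lay close together in both genes, far from any normal cerebellum. The secreted WNT antagonist Sfrp1 rose 178-fold (7.47 ± 0.15), the chemokine receptor gene Cxcr4 49.5-fold (5.63 ± 0.25) and the mitotic transcription factor gene Foxm1 181-fold (7.50 ± 0.32; well above background in 2 of the 3 normal cerebella). Igf2, a growth factor that SHH tumours can use, did not pass, with 1.80, 0.51 and 1.12 in the tumours and 1.91, 1.93 and 0.54 in the normal cerebella (-0.32 ± 0.62, adjusted p = 0.659, 95% interval -1.67 to 1.04). Bcl2, named after its values were seen, was the target that fell, by 0.59 on the log2 scale (adjusted p = 0.00257).

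Genes of cell division rose most among the lists. The promoters below are those of 4 genes of mitosis (Mki67, Ube2c, Cdk1, Cdc20) and 2 of DNA replication (Dtl, Orc1) and were chosen, with the letters seen, to show motifs that cell cycle promoters are known for. Each is the stretch of 200 bases before the gene's start, 5′ to 3′ along the gene's strand, from RefSeq on build GRCm38.p6. Capitals mark 3 kinds of motif on either strand: the CCAAT box (CCAAT or ATTGG), E2F-type sites (TTTCCCGC, TTTCGCGC, TTTGCCGC or TTTGGCGC, or on the other strand GCGGGAAA, GCGCGAAA, GCGGCAAA or GCGCCAAA) and CHR-type elements (TTTGAA or TTCGAA, or on the other strand TTCAAA). In Ube2c a CCAAT and an ATTGG overlap.
Mki67, chr7:135716380-135716579, minus strand: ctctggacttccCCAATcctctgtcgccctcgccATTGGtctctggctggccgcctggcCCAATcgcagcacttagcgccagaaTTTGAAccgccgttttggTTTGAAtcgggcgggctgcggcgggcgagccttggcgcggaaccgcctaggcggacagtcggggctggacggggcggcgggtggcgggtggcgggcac
Ube2c, chr2:164769729-164769928, plus strand: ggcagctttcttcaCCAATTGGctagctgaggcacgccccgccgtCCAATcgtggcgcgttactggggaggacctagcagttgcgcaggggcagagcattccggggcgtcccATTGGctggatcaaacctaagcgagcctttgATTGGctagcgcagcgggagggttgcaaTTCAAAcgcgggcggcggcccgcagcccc
Cdk1, chr10:69352913-69353112, minus strand: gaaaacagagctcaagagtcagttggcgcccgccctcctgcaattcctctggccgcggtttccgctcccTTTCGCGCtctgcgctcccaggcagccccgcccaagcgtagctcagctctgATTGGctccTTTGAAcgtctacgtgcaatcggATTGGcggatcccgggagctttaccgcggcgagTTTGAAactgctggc
Cdc20, chr4:118437344-118437543, minus strand: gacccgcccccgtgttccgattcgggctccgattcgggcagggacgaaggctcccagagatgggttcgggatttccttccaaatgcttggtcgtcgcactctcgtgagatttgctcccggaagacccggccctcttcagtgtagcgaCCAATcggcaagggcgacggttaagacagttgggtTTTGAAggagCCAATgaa
Dtl, chr1:191575545-191575744, minus strand: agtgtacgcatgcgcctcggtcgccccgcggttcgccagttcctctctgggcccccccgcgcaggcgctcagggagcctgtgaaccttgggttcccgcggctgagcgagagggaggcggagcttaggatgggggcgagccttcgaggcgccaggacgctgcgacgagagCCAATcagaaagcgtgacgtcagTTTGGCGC
Orc1, chr4:108579254-108579453, plus strand: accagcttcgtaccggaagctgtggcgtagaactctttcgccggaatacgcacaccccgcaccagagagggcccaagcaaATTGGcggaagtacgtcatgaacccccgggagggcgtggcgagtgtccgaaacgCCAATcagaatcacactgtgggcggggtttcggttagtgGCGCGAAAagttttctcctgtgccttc

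In the 250 bases before the start, a CCAAT box stood in 20 of 24 promoters (83.3%) of the 23 mitosis genes with a promoter in the table, out of 28 on that list. It stood in 17 of 24 promoters (70.8%) of 20 of the 23 replication genes, and in 33.85% of all 32851 promoters of 27025 genes. The E2F-type letters were found in 9 of 24 promoters of replication genes (37.5%) and 1 of 24 of mitosis genes (4.2%), against 1.86% of all promoters. The CHR-type letters were found in 10 of 24 promoters of mitosis genes (41.7%) and 6 of 24 of replication genes (25%), against 17.15% of all. These are matches of letters, not measured binding sites.

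All 28 genes of mitosis and the kinetochore that were tested rose, with a median change of 7.80. Mki67, the proliferation marker Ki-67, was at 6.04, 5.93 and 5.84 in the tumours, against -4.96, -4.49 and -3.02 in the normal cerebella (10.10 ± 0.36, adjusted p = 2.54e-10). Ube2c, the ubiquitin-conjugating enzyme of the anaphase-promoting complex, was at 3.45, 3.46 and 3.13 in the tumours and -4.89, -4.88 and -4.33 in the normal cerebella (8.05 ± 0.20, adjusted p = 1.27e-11). The tumours were uniformly high, and the spread lay among the normal cerebella, where these genes are near background. Cdc20, the activator of the anaphase-promoting complex, rose 47.8-fold (5.58 ± 0.15, adjusted p = 2.88e-11). Cdk1, the mitotic kinase, was at 2.66, 2.70 and 2.53 in the tumours and was not well above background in any normal cerebellum, which puts it at least 286-fold higher (adjusted p = 9.01e-12). The spindle and kinetochore genes Aurkb, Ndc80 and Ttk were likewise dark in the normal cerebella and were at least 108-fold, 58.0-fold and 19.3-fold higher. Top2a, topoisomerase of dividing cells, was at least 172-fold higher and was chosen after its values were seen.

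All 23 DNA replication genes tested rose as well, with a median of 4.02, and so did all 14 genes of nucleotide synthesis, with a median of 2.75. Mcm6, a subunit of the replicative helicase, was at 6.66, 6.73 and 6.47 in the tumours, against 0.49, 0.63 and 0.71 in the normal cerebella (6.01 ± 0.13, adjusted p = 3.2e-12). Mcm10, which helps to start the helicase, was at 3.76, 3.79 and 3.74 in the tumours and -3.47, -3.49 and -3.52 in the normal cerebella (7.26 ± 0.15). For Mcm10 the arrays of each group nearly coincided. Dtl, a factor that removes the licensing protein CDT1 during S phase, and Orc1, of the origin recognition complex, were dark in normal cerebellum and at least 234-fold and 19-fold higher in the tumours. Pcna, the sliding clamp of DNA polymerase, rose 8.04-fold (3.01 ± 0.13) and was named after its values were seen. Among the nucleotide enzymes, Tyms, thymidylate synthase, rose 50.6-fold (5.66 ± 0.12), Rrm1, the large subunit of ribonucleotide reductase, 10.4-fold (3.37 ± 0.11) and Impdh2, of guanine nucleotide synthesis, 6.63-fold (2.73 ± 0.09). Tk1, thymidine kinase, was at 3.13, 3.13 and 3.15 in the tumours and at least 407-fold above the normal cerebella.

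The 10 highest changes among genes well above background on all 6 arrays were led by such genes. Besides Mki67 and Ube2c they were Birc5, survivin (8.52 ± 0.22), the mitotic kinesin Kif20a (8.25 ± 0.20), the keratin gene Krt10 (8.17 ± 0.54), the DNA exonuclease gene Exo1 (7.91 ± 0.14), cyclin A2, Ccna2 (7.86 ± 0.17), the histone chaperone subunit Chaf1b (7.71 ± 0.14), the WNT antagonist Sfrp2 (7.61 ± 0.31) and Cdca7 (7.53 ± 0.09). Krt10 was at 3.76, 3.79 and 3.60 in the tumours, against -4.38, -4.38 and -4.59 in the normal cerebella, and Sfrp2 at 2.98, 3.37 and 3.35, against -4.69, -3.92 and -4.50. Krt10 is best known from the skin. Of the 657 genes that were well above background in all 3 tumours and on no normal array, the 8 with the highest bounds were Ncapg of condensin (at least 599.9-fold), Igfbpl1 (557-fold), Tk1, the spindle protein gene Nusap1 (343-fold), Nhlh1 (331-fold), Insm1 (315-fold), Cdk1 and the mitotic kinase Melk (259-fold). Igfbpl1, Nhlh1 and Insm1 mark immature neurons and neuronal precursors.

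**Figure D2:**
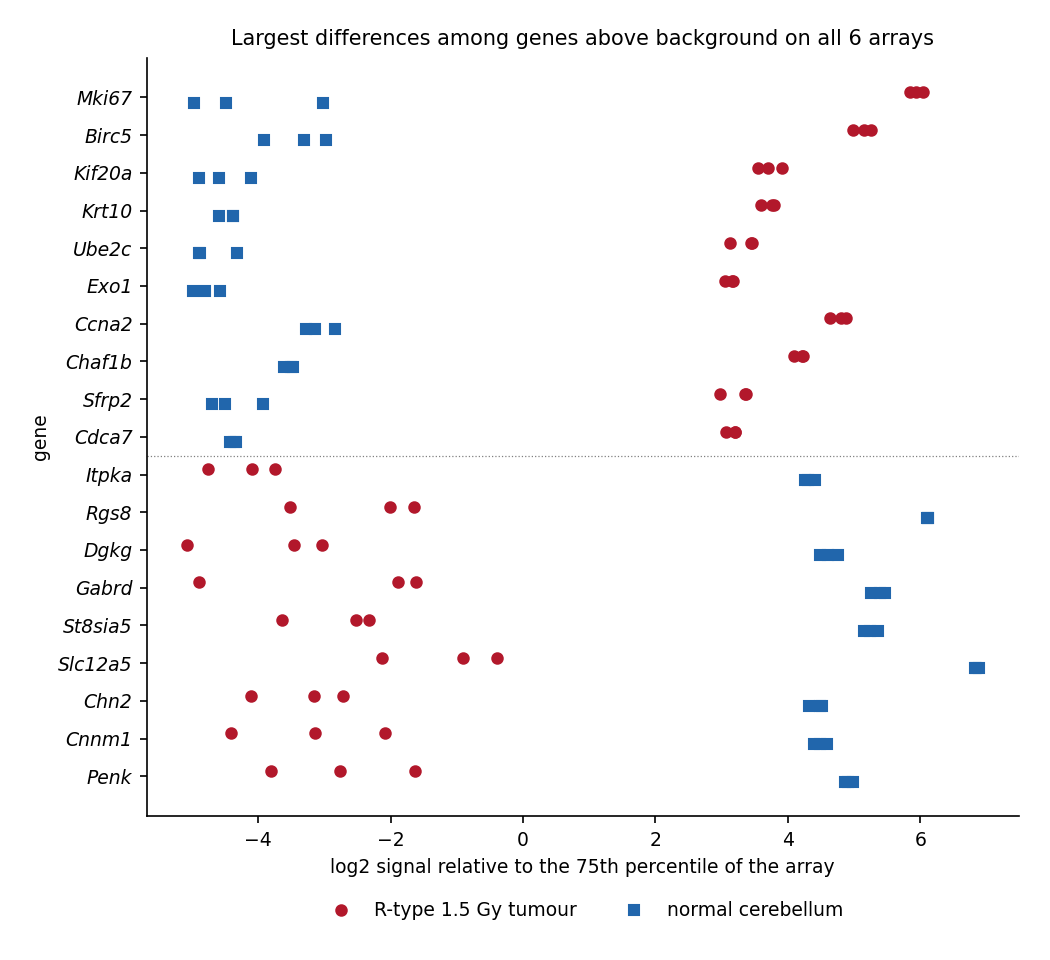
Log2 signal on each array, as the log2 processed signal minus the 75th percentile of its array, of the genes with the highest (10) and the lowest change (9 of 10 shown) among those well above background on all 6 arrays. Circles are R-type 1.5 Gy tumours and squares, just under them, are normal cerebella. The tumours lie close together in the high genes and are more spread out in the low genes, such as Gabrd and Cnnm1.

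Of 19 genes of the G1 phase, cyclins, kinases and E2F factors, 15 rose, 2 fell and 2 did not pass (median 1.63). The E2F factors themselves were among those that rose: E2f1 44.5-fold (5.48 ± 0.13), E2f2 142-fold (7.15 ± 0.16) and E2f7, a repressor within the family, 46.0-fold (5.52 ± 0.09). E2f8 and Cdk2, the S-phase kinase, were dark in normal cerebellum and at least 43.1-fold and 8.91-fold higher. The 2 that fell, named after their values were seen, were E2f6, a repressor (-0.58 ± 0.09), and Rbl2, the retinoblastoma relative p130 of resting cells (-0.35 ± 0.09).

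All 7 inhibitors of cyclin-dependent kinases that were tested also rose, with a median of 1.84. Cdkn2c, p18 of the INK4 family, was at 2.74, 2.91 and 2.66 in the tumours, against -1.0, -0.88 and -0.96 in the normal cerebella (3.72 ± 0.16, adjusted p = 9.42e-10). Cdkn1c, p57, was at 2.16, 2.06 and 1.19 in the tumours and -0.70, -0.21 and -1.27 in the normal cerebella (2.53 ± 0.37, adjusted p = 5.13e-05). Cdkn2b (1.84 ± 0.25) and Cdkn1a, the p53 target p21 (1.77 ± 0.31), rose by similar amounts. Cdkn2a, which encodes p16 and ARF, was at -2.73, -2.29 and -3.22 in the tumours and dark in normal cerebellum, a rise of at least 6.91-fold (adjusted p = 3.61e-07).

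Of 26 genes for p53 and its targets, 13 rose, 7 fell and 6 did not pass, and the median of 0.27 was near that of all genes. The probe used for Trp53, the p53 gene, gave -0.73, -0.52 and -0.55 in the tumours and -0.58, -0.42 and -0.38 in the normal cerebella (-0.14 ± 0.11, adjusted p = 0.283). Its other probe read 3.15 log2 units higher in the tumours with no overlap, so the 2 probes disagree and no direction is given for Trp53. Some genes of the list that promote cell death, named for their small adjusted p-values, were higher in all 3 tumours. They were Pmaip1, NOXA, 12.7-fold (3.67 ± 0.22), Bax 3.03-fold (1.60 ± 0.16) and Bbc3, PUMA, 2.54-fold (1.35 ± 0.13). Trp53inp1 rose 4.65-fold (2.22 ± 0.18), and the receptor gene Eda2r was at least 3.43-fold higher. Mdm2, the ubiquitin ligase of p53 and a gene picked out after its values were seen, changed little on its brighter probe (0.26 ± 0.08), read -0.08 on the other probe and turned to -0.04 without scaling.

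Of 26 genes of DNA damage signalling and repair, 24 rose and 2 did not pass (median 2.25). Brca1, of homologous recombination, was at 2.21, 2.23 and 2.26 in the tumours, against -3.47, -3.36 and -3.44 in the normal cerebella (5.66 ± 0.11, adjusted p = 1.79e-12). Fanca, of the Fanconi anaemia pathway (4.52 ± 0.10), the uracil glycosylase gene Ung (4.15 ± 0.12) and the helicase gene Blm (3.12 ± 0.10) rose too. Chek1, the checkpoint kinase (5.61 ± 0.20, well above background in 1 of 3 normal cerebella), is added after its values were seen. Many of these genes are also expressed in S phase, and the mitosis and replication genes above moved with them; that part in the result was not tested.

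Of 18 chromatin genes, 16 rose and 2 fell (median 1.72). Ezh2, the methyltransferase of Polycomb complex PRC2, was at 3.09, 3.15 and 3.06 in the tumours and -1.31, -1.41 and -1.18 in the normal cerebella (4.40 ± 0.17, adjusted p = 4.79e-10). Uhrf1, which brings the maintenance DNA methyltransferase to replicating DNA (9.45 ± 0.31; well above background in 1 of 3 normal cerebella), Hmgb2 (5.55 ± 0.13) and Chaf1a (4.29 ± 0.16) rose. Dnmt3a, a DNA methyltransferase singled out after its values were seen, was 1 of the 2 that fell. The probe used for Dnmt3a gave -0.33 ± 0.11, while its other probes gave 2.47 and 0.07.

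The markers of granule neuron precursors did not move as a block. Of 15 tested, 9 rose, 4 fell and 2 did not pass (median 0.47). Atoh1, the transcription factor that defines these precursors, was at 2.09, 2.28 and 1.95 in the tumours and dark in the normal cerebella, a rise of at least 199-fold (adjusted p = 2.69e-10). Mfap4 (6.30 ± 0.40) and Barhl1, a homeobox gene downstream of Atoh1 (4.19 ± 0.15), rose. Zic1, which stays on in mature granule neurons, did not pass: 6.69, 6.39 and 6.70 in the tumours, against 6.78, 6.64 and 6.80 in the normal cerebella (-0.14 ± 0.11, 95% interval -0.37 to 0.09). Its relative Zic2 fell 3.97-fold (-1.99 ± 0.11), and so did the stem cell factor gene Sox2, at -1.84, -2.85 and -1.06 in the tumours and 0.40, 0.54 and 0.30 in the normal cerebella (-2.33 ± 0.53, adjusted p = 0.00168). Sox2 is also made by glia of the adult cerebellum. Sox2 was selected after its values were seen.

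Genes of neurons that have just left the cell cycle were higher in the tumours: of 14 tested, 11 rose, 1 fell and 2 did not pass (median 2.60). Dcx, doublecortin of migrating neurons, was at 3.48, 2.94 and 3.26 in the tumours, against -3.63, -3.45 and -3.61 in the normal cerebella (6.79 ± 0.18, adjusted p = 1.62e-11). Sox11, a factor of young neurons, was at 2.50, 2.12 and 2.40 in the tumours and -4.83, -4.38 and -4.36 in the normal cerebella (6.86 ± 0.14). MB11 was the lowest tumour in both. Nfia (2.69 ± 0.10) and Nfib (2.51 ± 0.10), nuclear factors that guide granule neuron maturation, rose. Neurod1 was the gene that fell, with 1.40, 0.60 and 1.84 in the tumours and 2.43, 2.31 and 2.62 in the normal cerebella (-1.17 ± 0.39, adjusted p = 0.0155). Without MB11 its change was -0.83 (adjusted p = 0.0742), and it was named after its values were seen.

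Genes of mature cerebellar neurons were far lower. All 17 markers of mature granule neurons that were tested fell (median -4.12). Gabra6, the GABA-A receptor subunit of these cells, was at -3.30, -7.51 and -2.29 in the tumours, where MB10 and MB12 alone were well above background, and at 4.92, 4.86 and 5.15 in the normal cerebella (-9.34 ± 1.36, adjusted p = 4.76e-05). Gabrd, its partner in extrasynaptic receptors, was at -1.89, -4.89 and -1.61 in the tumours and 5.39, 5.25 and 5.47 in the normal cerebella (-8.17 ± 0.99). In both genes MB11 lay far below the other tumours. Smaller falls were seen in Cbln1, a synapse organiser (-2.17 ± 0.16), in the Rac activator gene Tiam1 (-2.97 ± 0.15) and in Rbfox3, which encodes the neuronal antigen NeuN (-1.69 ± 0.12). Slc17a7, the vesicular glutamate transporter of granule neurons, was well above background only in MB12 among the tumours (-4.94, against 0.70, 0.62 and 0.77 in the normal cerebella) and is listed after its values were seen. Since these are bulk samples, fewer cells of a type and less RNA in each cell cannot be told apart, here or in any cell type below.

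Of 16 Purkinje cell markers, 15 fell and 1 rose, with a median of -6.04. Calb1, calbindin, was at -2.05, -7.28 and -2.90 in the tumours, well above background in MB10 and MB12, and at 6.14, 6.08 and 6.08 in the normal cerebella (-10.18 ± 1.24, adjusted p = 1.02e-05). Pcp2, a Purkinje-specific protein, was at -0.84, -1.44 and -0.57 in the tumours and 5.12, 5.08 and 5.01 in the normal cerebella (-6.02 ± 0.24, adjusted p = 6.88e-10). The other leading members behaved alike: the glutamate transporter Slc1a6 fell 66.6-fold, the nuclear receptor gene Rora 30.7-fold and Homer3 5.10-fold. Gng13, a G-protein subunit given after its values were seen, was at -2.27, -7.62 and -3.64 in the tumours, well above background in 2, and at 5.21, 5.02 and 4.98 in the normal cerebella. Foxp2, a transcription factor, was the marker that rose (0.13, 0.82 and 0.54 in the tumours, -1.10, -1.13 and -1.32 in the normal cerebella; 1.68 ± 0.30, adjusted p = 0.000238) and was looked at for that reason.

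Markers of GABAergic interneurons were lower as well. Of 10 markers tested, 9 fell and 1 rose (median -4.54). Gad1, the enzyme that makes GABA, was at -3.79, -7.62 and -4.28 in the tumours, with MB11 not above background, and at 3.58, 3.55 and 3.41 in the normal cerebella (-8.74 ± 0.74, adjusted p = 4.03e-07). Gad2, the other such enzyme, fell 142-fold and was well above background in 2 of the 3 tumours. Slc32a1, the vesicular GABA transporter, was at -1.14, -5.53 and -2.03 in the tumours, well above background in 2 of the 3, and 6.23, 6.27 and 6.16 in the normal cerebella. Slc32a1 was singled out after its values were seen. The glycine transporter gene Slc6a5 of Golgi cells and Tfap2b were dark in all 3 tumours and at least 22.0-fold and 1.66-fold lower. Lhx1 rose (0.72 ± 0.13), and is named for being the exception. Among 5 markers of unipolar brush cells, excitatory interneurons of the granular layer, 4 fell and Otx2 did not pass (-1.08, 0.12 and -0.80 in the tumours, -2.76, -2.75 and -2.88 in the normal cerebella; adjusted p = 0.234). The groups did not overlap for Otx2, and its SE of 1.62 draws on the spread in all groups of the study. Eomes, which marks unipolar brush cells, was at least 23.8-fold lower.

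**Figure D3:**
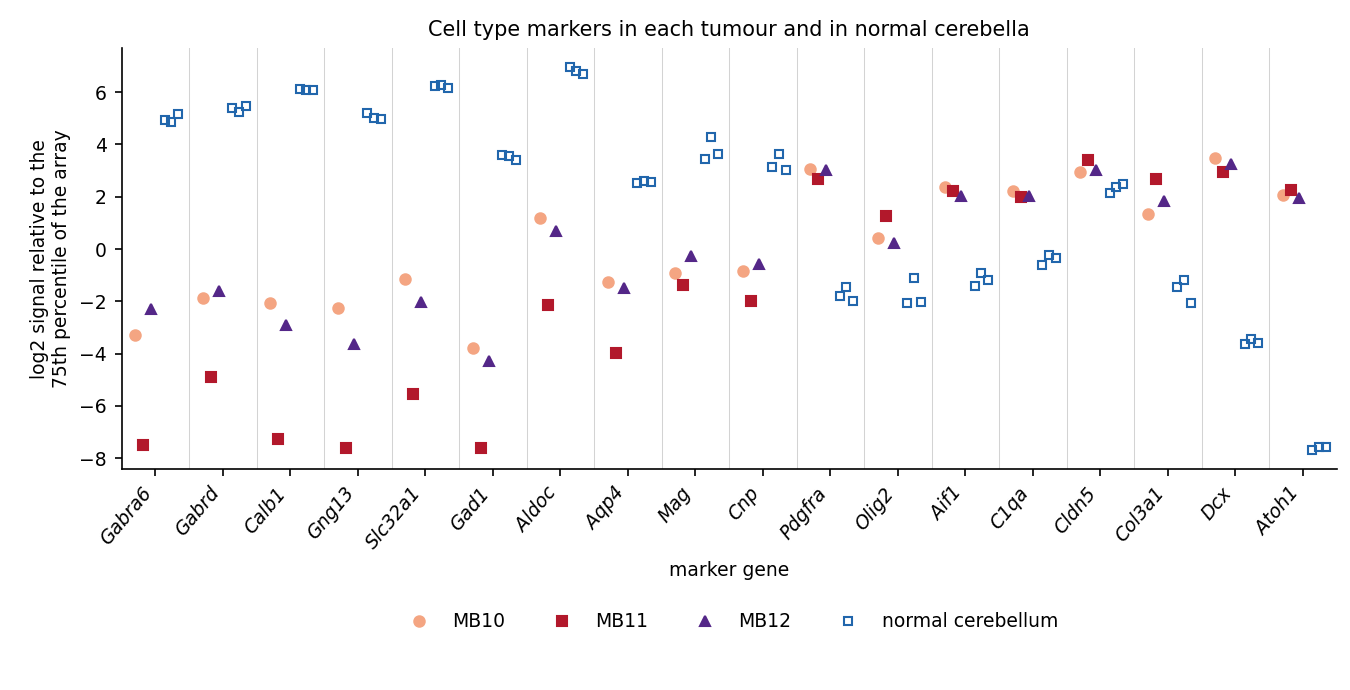
Log2 signal, as the log2 processed signal minus the 75th percentile of its array, of marker genes of cerebellar cell types on each array, R-type 1.5 Gy tumours left of normal cerebella. Calb1, Gabra6, Gad1 and other neuronal markers lie lowest in MB11, while the microglial markers lie higher in all 3 tumours than in normal cerebellum.

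Genes of neuronal function were lower too. Of 19 genes of synaptic vesicles, 17 fell and 2 rose (median -3.0). Snap25, a SNARE protein of release, was at -2.02, -2.07 and -1.48 in the tumours and 4.17, 4.04 and 4.21 in the normal cerebella (-6.00 ± 0.36, adjusted p = 1.71e-08), and Vamp1 (-4.39 ± 0.18), Vamp2 (-3.12 ± 0.16) and Nsf (-3.59 ± 0.12) fell with it. Stx1a, syntaxin 1A, rose (-1.11, -0.73 and -0.94 in the tumours, -4.29, -4.39 and -4.91 in the normal cerebella; 3.61 ± 0.15). The other gene that rose on the probe used, Syn1 (0.38), fell by 2.83 on its other probe. Of 19 receptors for glutamate, GABA and glycine, 16 fell, 1 rose and 2 did not pass (median -3.02), and of 16 voltage-gated channels 15 fell and 1 did not pass (median -5.18). Gabrb2 (-6.37 ± 0.56), Scn1a, a sodium channel of interneurons and Purkinje cells (-5.15 ± 0.21), and Cacnb4 (-6.05 ± 0.36) were among those that fell. The receptor gene that rose, Grin2b (-3.14, -1.85 and -1.66 in the tumours, -3.64, -3.56 and -3.82 in the normal cerebella), missed the threshold without MB11 (adjusted p = 0.0811), and its other probe gave -0.15. Syn1 and Grin2b were examined after their values were seen.

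The 10 lowest changes among genes well above background on all 6 arrays included Chn2 and Gabrd of the lists above, and most of the others are on no list. Itpka, an inositol trisphosphate kinase of dendrites, was at -4.10, -4.77 and -3.74 in the tumours, against 4.41, 4.26 and 4.31 in the normal cerebella (-8.53 ± 0.41, adjusted p = 2.71e-09). Rgs8, a G-protein regulator of Purkinje cells, was at -1.65, -3.51 and -2.00 in the tumours and 6.10, 6.11 and 6.11 in the normal cerebella (-8.50 ± 0.45). Among the others, besides Gabrd, were Dgkg (-8.48 ± 0.77), the sialyltransferase gene St8sia5 (-8.08 ± 0.50), the neuronal chloride exporter Slc12a5 (-7.99 ± 0.67), Chn2 (-7.76 ± 0.56), Cnnm1 (-7.70 ± 0.68) and Penk, the enkephalin precursor (-7.66 ± 0.51). MB11 was the lowest tumour in all 10. Of 1114 genes dark in all 3 tumours and well above background in all 3 normal cerebella, the 8 with the largest bounds were the neuropeptide gene Cck (at least 275-fold lower), the heavy neurofilament gene Nefh (221-fold), Il22 (159.9-fold), Tuba8 (113-fold), Ralyl (111-fold), Hhatl (101-fold), Ms4a19 (85.5-fold) and Slco4a1 (82.7-fold).

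Filament genes went in both directions. Of 6 intermediate filament genes tested, 3 fell and 2 rose. Nefl, of mature axons, was well above background in 1 tumour (-4.34, -7.31 and -5.40, against 3.45, 4.35 and 3.51 in the normal cerebella), and Nefm fell 48.7-fold (-5.61 ± 0.90). Nes, nestin of neural stem and progenitor cells, was at 2.36, 3.66 and 3.03 in the tumours and -1.07, -0.81 and -1.12 in the normal cerebella (4.02 ± 0.33, adjusted p = 3.29e-07), highest in MB11. Vim rose by less (0.69 ± 0.22, adjusted p = 0.0134), and not past the threshold without scaling (0.39, adjusted p = 0.0689).

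Glial markers were mostly lower. Of 15 markers of astrocytes and Bergmann glia, 12 fell, 1 rose and 2 did not pass (median -3.59). Aldoc, an aldolase of Bergmann glia and of Purkinje cells, was at 1.18, -2.16 and 0.67 in the tumours and 6.95, 6.79 and 6.69 in the normal cerebella (-6.91 ± 0.66, adjusted p = 1.15e-06). Gja1, connexin 43, fell 15.7-fold, and Glul, glutamine synthetase, 3.16-fold, while Etnppl was well above background in MB10 alone among the tumours. Sox9, a glial factor also active in neural progenitors, rose (2.99, 3.33 and 2.88 in the tumours, 0.90, 1.01 and 0.79 in the normal cerebella; 2.16 ± 0.13). Gfap did not pass (0.11 ± 0.34, adjusted p = 0.78) and Aqp4, the water channel of astrocyte end-feet, was at -1.27, -3.98 and -1.49 in the tumours and 2.53, 2.62 and 2.55 in the normal cerebella; both are given after their values were seen.

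Of 13 oligodendrocyte markers, 12 fell and 1 did not pass (median -3.80). Mag, a glycoprotein of myelin, was at -0.93, -1.39 and -0.25 in the tumours and 3.45, 4.28 and 3.63 in the normal cerebella (-4.65 ± 0.45, adjusted p = 1.42e-06), again lowest in MB11. Cnp fell 21.1-fold and Mal 12.6-fold, and Mog was at least 17.2-fold lower. The gene that did not pass, Mbp, myelin basic protein, read 0.30 on its brightest probe but -6.37 and -6.76 on its other probes. The precursors of oligodendrocytes differed in direction: of 6 genes tested, 3 rose and 3 did not pass (median 1.16). Pdgfra, their growth factor receptor, was at 3.07, 2.70 and 3.04 in the tumours, against -1.81, -1.44 and -1.98 in the normal cerebella (4.68 ± 0.35, adjusted p = 1.14e-07), and Olig2 at 0.40, 1.26 and 0.22, against -2.06, -1.11 and -2.01 (2.35 ± 0.39). Cspg4, NG2, rose 3.17-fold. Gpr17, of a later precursor stage, was at 2.36, -1.52 and 1.67 in the tumours and 1.85, 2.12 and 1.72 in the normal cerebella (-1.06 ± 1.20, adjusted p = 0.436).

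Markers of microglia and macrophages were higher: of 16 tested, 10 rose, 3 fell and 3 did not pass (median 1.30). Aif1, IBA1, was at 2.36, 2.21 and 2.02 in the tumours, against -1.43, -0.92 and -1.18 in the normal cerebella (3.37 ± 0.20, adjusted p = 1.5e-08). The complement genes C1qa, C1qb and C1qc rose by 2.47, 2.52 and 2.80 log2 units, and the adaptor gene Tyrobp by 2.82, with no overlap in any of them. The 3 that fell, named for that, were P2ry12 (-1.24 ± 0.24) and Tmem119 (-0.83 ± 0.30), both markers of resting brain microglia, and Cd163, of border macrophages, which was dark in all 3 tumours and at least 2.09-fold lower. Tmem119 did not pass without MB11 (adjusted p = 0.0949). Of 5 lymphocyte genes tested, 1 rose and 2 fell. Cd79b of B cells rose (2.25 ± 0.30), and Cd3g of T cells, 1 of those that fell, was at least 1.61-fold lower.

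Vessel markers were mixed. Of 14 endothelial genes, 7 rose, 5 fell and 2 did not pass (median 0.66), beside 41.2% higher and 33.4% lower among all genes. Abcb1a, the efflux pump P-glycoprotein of the blood-brain barrier, was at -4.02, -4.30 and -4.36 in the tumours and -2.63, -2.41 and -2.74 in the normal cerebella (-1.64 ± 0.19, adjusted p = 6.51e-06), and the transporter gene Slco1a4 at -1.46, -2.49 and -1.47 in the tumours and 0.04, 0.04 and -0.24 in the normal cerebella (-1.75 ± 0.41). The receptor gene Flt1 (-1.61 ± 0.22) and Ly6c1 (-1.81 ± 0.25) fell, and Vwf rose (1.27 ± 0.22). Cldn5, of the tight junctions of that barrier, rose as well (2.93, 3.42 and 3.02 in the tumours, 2.15, 2.36 and 2.47 in the normal cerebella; 0.80 ± 0.19, adjusted p = 0.00246) and is given after its values were seen. Of 10 genes of pericytes and smooth muscle, 7 rose, 1 fell and 2 did not pass (median 1.16). Kcnj8 (2.24 ± 0.38) and Abcc9 (2.96 ± 0.43), which form the potassium channel of pericytes, rose together, as did Acta2 (1.54 ± 0.13), while Myh11 of mature smooth muscle fell (-1.10 ± 0.19).

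Of 10 genes of meningeal fibroblasts, 3 rose, 3 fell and 4 did not pass. Col3a1, a fibrillar collagen, was at 1.35, 2.68 and 1.85 in the tumours and -1.46, -1.19 and -2.07 in the normal cerebella (3.53 ± 0.47, adjusted p = 2.1e-05), highest in MB11, and Col1a1 rose by 1.99 ± 0.60. Ptgds, prostaglandin D synthase of the leptomeninges, was at -1.28, -3.57 and -2.66 in the tumours and 5.80, 5.71 and 3.67 in the normal cerebella (-7.57 ± 0.80). The transporter gene Slc6a13 fell by 4.69 on the log2 scale and was well above background in 2 tumours. Of 7 choroid plexus genes, 2 rose, 1 fell and 4 did not pass. The defining marker Ttr was dark in all 3 tumours and well above background in 1 of 3 normal cerebella, and Aqp1 was at -1.91, -0.23 and -0.19 in the tumours and dark in normal cerebellum (at least 27.0-fold higher). All 5 blood genes tested fell (median -2.98), among them the globins Hbb-bt (-3.32 ± 0.69) and Hba-a1 (-3.15 ± 0.66).

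Of 19 Notch genes, 12 rose, 3 fell and 4 did not pass (median 1.26). Dll3, an inhibitory ligand, was at 1.22, 3.33 and 2.23 in the tumours and -4.71, -4.43 and -4.67 in the normal cerebella (6.86 ± 0.56, adjusted p = 2.65e-07), and the tumours were spread over 2 log2 units. The target genes Hey1 (2.65 ± 0.13) and Nrarp (3.06 ± 0.24) rose with Rbpj, the DNA-binding factor of the pathway (2.28 ± 0.12), and the receptor gene Notch2 (1.77 ± 0.14). Of 20 WNT genes, 9 rose, 7 fell and 4 did not pass (median 0.12). Those shares are close to the 41.2% of all genes that rose and the 33.4% that fell. The secreted antagonists Sfrp1 and Sfrp2 rose as given above, and so did the receptor genes Fzd2 (4.74 ± 0.28) and Lrp5 (2.13 ± 0.13) and the feedback inhibitor gene Nkd1 (3.82 ± 0.12). Wnt7a, a ligand made by granule neurons, was at -4.43, -6.59 and -4.46 in the tumours and 1.57, 1.45 and 1.73 in the normal cerebella (-6.74 ± 0.83), and was looked at after its values were seen.

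Of 18 TGF-beta genes, 11 rose, 5 fell and 2 did not pass (median 0.89). The signal carriers Smad2 (1.42 ± 0.10) and Smad4 (1.30 ± 0.08) rose, while the inhibitor Smad7 fell (-2.54 ± 0.11, adjusted p = 1.23e-09). Repressors of the pathway moved upwards, Tgif1 54.6-fold (5.77 ± 0.20) and Skil 2.05-fold (1.04 ± 0.08). Of 16 BMP and ID genes, 4 rose, 7 fell and 5 did not pass (median -0.16). Id4, a glial and neuronal differentiation inhibitor, was at -2.06, -5.67 and -2.20 in the tumours and 3.46, 3.26 and 3.28 in the normal cerebella (-6.65 ± 0.75), and the receptors Bmpr1b (-3.06 ± 0.32) and Bmpr2 (-0.71 ± 0.08) fell with it. Nog, the BMP antagonist noggin, was dark in all 3 tumours and at least 8.35-fold lower, while Fstl1 rose (3.00 ± 0.26) and Id1, picked out after its values were seen, rose by 1.39 ± 0.23.

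Of 13 genes of insulin-like growth factors, 8 rose, 2 fell and 3 did not pass (median 1.36). Irs1, the adaptor of the IGF1 receptor whose protein SHH is known to stabilise in precursors, was at 5.25, 5.40 and 5.22 in the tumours and 2.07, 2.22 and 2.36 in the normal cerebella (3.07 ± 0.14, adjusted p = 1.57e-09). Igf1 (2.84 ± 0.22) and the binding protein genes Igfbp7 (2.83 ± 0.18), Igfbp3 (2.59 ± 0.24) and Igfbp4 (2.18 ± 0.26) rose, while Igf2, given above, did not pass. Of 13 members of the BCL2 family, 8 rose and 5 fell (median 1.35). Those promoting cell death included Bid (4.23 ± 0.18) and Bcl2l11, BIM (2.24 ± 0.15), and the survival gene Bcl2l2 fell (-2.04 ± 0.11).

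Of 20 imprinted genes, 8 rose, 9 fell and 3 did not pass (median -0.42), with medians of 0.02 in MB10 and -0.92 in MB11. Among all genes, 41.2% rose and 33.4% fell. Plagl1, a zinc finger gene expressed from the paternal copy, was at 1.71, 1.46 and 1.53 in the tumours and 0.54, 0.61 and 0.41 in the normal cerebella (1.04 ± 0.31, adjusted p = 0.0085), and it missed the threshold without scaling (0.75, adjusted p = 0.0711). Nnat, neuronatin, rose 14.3-fold (3.84 ± 0.36). Those that fell included Snrpn, of neuronal splicing (-2.57 ± 0.11), Zrsr1 (-3.29 ± 0.22), Impact (-1.48 ± 0.12) and Rasgrf1 (-6.29 ± 0.51, well above background in 2 tumours). The last 3 were examined after their values were seen: Ndn at -0.33, -0.01 and -2.01 in the tumours against 2.56, 2.62 and 2.60 in the normal cerebella, Mest, which rose 5.94-fold, and Dlk1, at least 4.32-fold higher.

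Of the genes of basic metabolism, all 18 ribosomal proteins tested rose (median 1.73), by 2.85 log2 units for Rpl22 (6.07, 6.16 and 5.95 in the tumours, 3.18, 3.23 and 3.23 in the normal cerebella) and by 1.69 for Rps3. Of 19 genes of the respiratory chain, 13 fell and 6 did not pass (median -0.57). The falls were small, as in Ndufv1 (-0.69 ± 0.07) and Cox4i1 (-0.67 ± 0.07), apart from Sdha, the succinate dehydrogenase subunit on chromosome 13 (-2.64 ± 0.12). Sdha was at 3.40, 3.36 and 3.38 in the normal cerebella. It was also far lower in other tumours, at 1.60, 1.35 and 1.62 in MB7 to MB9 and 1.34, 1.47 and 1.10 in MB1 to MB3. Of 22 genes of hypoxia and glycolysis, 4 rose, 12 fell and 6 did not pass (median -0.53). Isoenzymes moved in opposite directions. Hk2, the inducible hexokinase, was at 4.80, 5.40 and 4.98 in the tumours and 2.00, 1.75 and 1.63 in the normal cerebella (3.27 ± 0.21, adjusted p = 2.8e-08), while Hk1 fell (-2.84 ± 0.16). Ldha rose (1.77 ± 0.26) and Ldhb fell (-1.77 ± 0.16), and Eno2, the neuronal enolase, fell 124-fold. Car9, a hypoxia target, fell as well (-2.08 ± 0.18). Ldha was added after its values were seen.

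Of 14 immediate early genes, 4 rose, 7 fell and 3 did not pass (median -0.26). Fos was at -3.40, -4.55 and -3.56 in the tumours and -0.05, -0.08 and 0.88 in the normal cerebella (-4.09 ± 0.55, adjusted p = 2.27e-05), and the activity-regulated Arc (-3.38 ± 0.33) and Dusp1 (-1.89 ± 0.19) fell with it. Egr2 was the opposite, at 1.23, 0.84 and 1.34 in the tumours and dark in normal cerebellum (at least 102-fold higher, adjusted p = 4.63e-10). Of 18 genes of the interferon response and MHC class I, 8 rose, 4 fell and 6 did not pass (median 0.22). Among all genes, 41.2% rose and 33.4% fell. Psmb8 (1.65 ± 0.16), B2m (1.09 ± 0.11) and Ifitm3 (1.40 ± 0.18) rose, while the signal carrier Stat2 (-2.13 ± 0.10) fell.

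**Figure D4:**
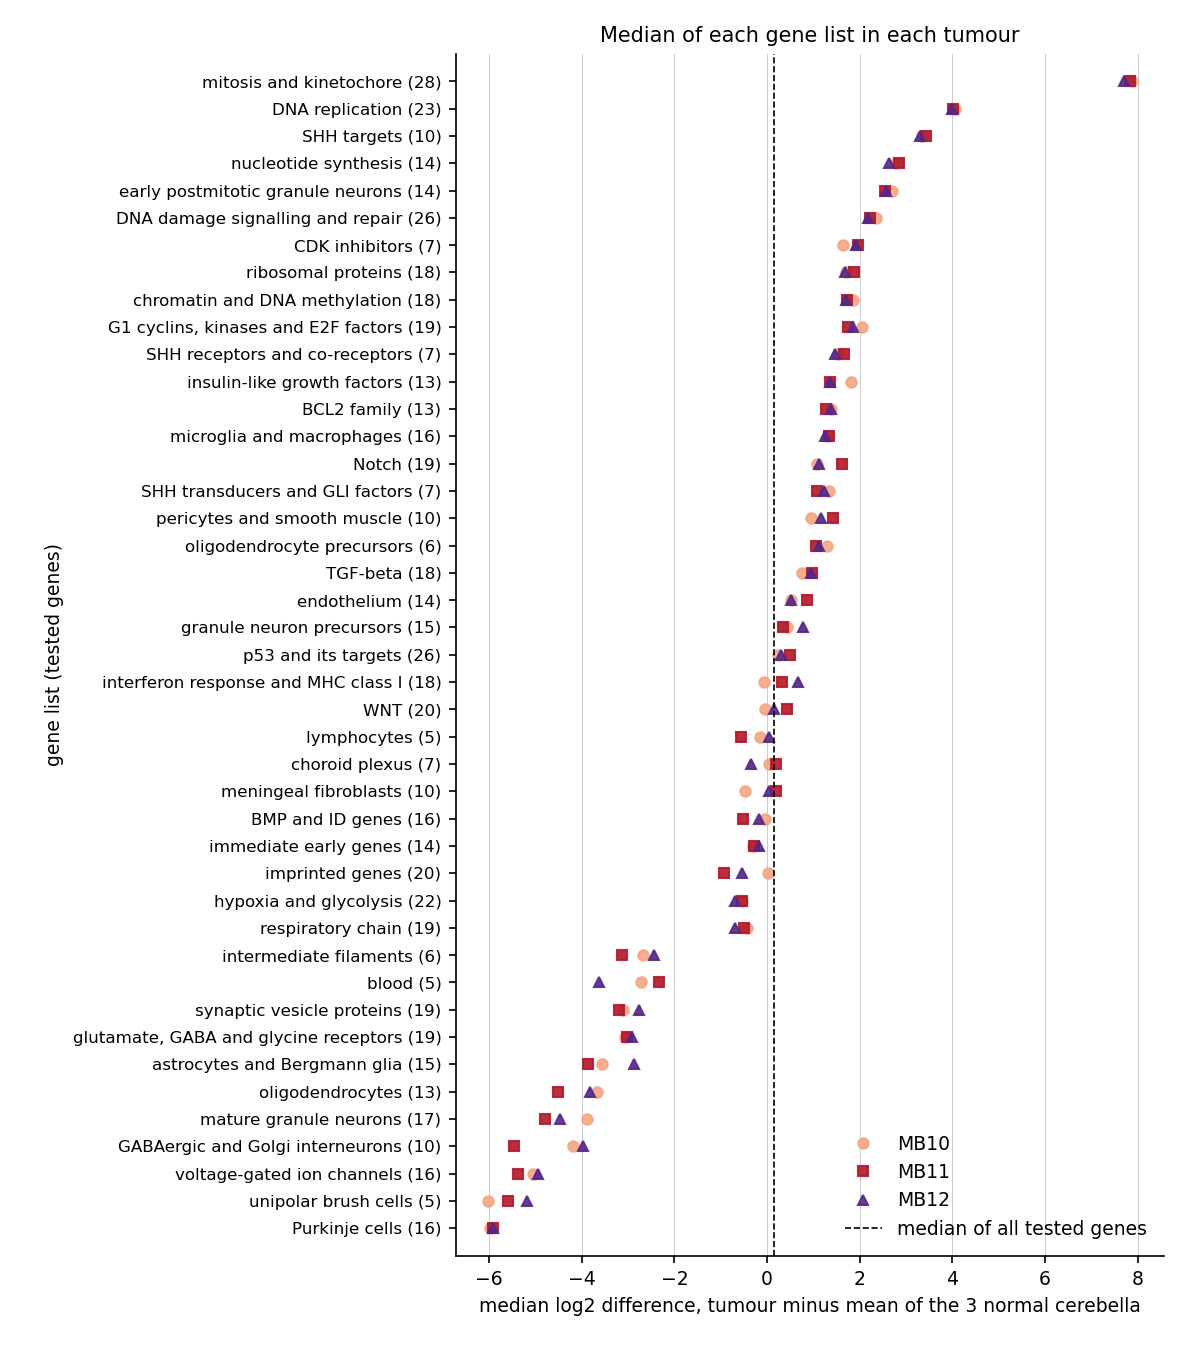
Median over the genes of each list of the log2 difference, each R-type 1.5 Gy tumour minus the mean of the 3 normal cerebella, with the number of tested genes in brackets and the median of all tested genes (0.145) as a dashed line. Lists are sorted by the median of their changes, from -6.04 for Purkinje cells to 7.80 for mitosis and the kinetochore, and the points of the 3 tumours lie close together in most lists.

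Among genes with high tumour signals whose 95% interval lay within 0.5 log2 units of 0, the 6 highest were Ubb, Mdh2, Atp5b, Zic1, Myl6 and Nisch. Under quantile normalization Ubb (-0.486, adjusted p = 0.000128) and Myl6 (-0.600, adjusted p = 1.18e-05) passed as lower in limma. The mitochondrial ATP synthase gene Atp5b was at 6.77, 6.78 and 6.70 in the tumours and 6.71, 6.83 and 6.90 in the normal cerebella (-0.07 ± 0.08, 95% interval -0.25 to 0.12).

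The 3 tumours differed little for most genes. Of 18146 genes well above background in all 3, 149 (0.821%) spanned over 2 log2 units. The 8 widest were Tex13b, Tecta, Tenm3, Slc7a3, Zfp239, Slc15a2, Gpr17 and Chac1. The amino acid transporter gene Slc7a3 was at -1.47, -2.92 and 1.40 in MB10, MB11 and MB12, against -2.78, -2.44 and -2.75 in the normal cerebella. Zfp239 was at 1.11, 1.25 and -2.74 in the tumours, against 0.87, 0.92 and 0.84. Tenm3, a cell adhesion gene, was at -0.99, -5.09 and -0.33, against -1.55, -1.25 and -1.19. Slc7a3, Zfp239 and Tenm3 missed the threshold against normal cerebellum (adjusted p = 0.199, 0.262 and 0.547). MB11 had the lowest median change of the 3 tumours in some lists of normal cell types and not in others. Over mature granule neuron markers its median was -4.79, beside -3.90 in MB10 and -4.47 in MB12, over GABAergic interneurons -5.46, beside -4.19 and -3.97, over oligodendrocyte markers -4.52, beside -3.67 and -3.83, and over astrocyte markers -3.87, beside -3.56 and -2.87. Over Purkinje cell markers it was -5.91, beside -5.98 and -5.91, and over unipolar brush cells -5.58, beside -6.02 and -5.19, so that MB10 was lowest in both. Leaving MB11 out left 15413 genes called. Whether admixed normal tissue has a part in the falls was not tested.

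Very few genes passed between the 1.5 Gy tumours and the R-type tumours after 0.2 Gy. The latter all had higher age labels, so dose and age cannot be told apart here. Of 21661 tested, 15 passed (0.0692%), 14 of them lower (0.0646%) and 1 higher (0.00462%), and 1528 had an unadjusted p below 0.05. The 9 that carry a gene symbol were all on chromosome 13, within a run of 17 neighbouring tested genes. Ndufs6, of respiratory complex I, was at 3.13, 3.12 and 2.93 in the 1.5 Gy tumours and 4.04, 4.01 and 4.13 in the 0.2 Gy tumours (-1.0 ± 0.08, adjusted p = 0.000911). Brd9, a chromatin remodelling subunit, was at 0.61, 0.36 and 0.41 in the 1.5 Gy tumours and 1.31, 1.43 and 1.40 in the 0.2 Gy tumours (-0.92 ± 0.09, adjusted p = 0.00114). The other genes named by the rule were Mrpl36 (-0.97 ± 0.10), Clptm1l (-0.84 ± 0.10), Zfp825 (-0.84 ± 0.08) and Pdcd6 (-0.82 ± 0.07), each lower in all 3 of the 1.5 Gy tumours. The count rests on the spread borrowed from the other groups and on single tumours: with these 6 arrays alone no gene passed in limma (1373 at an unadjusted p below 0.05), and it was 9 without MB9 and 159 without MB8. Without MB10 it was 25, and without MB11 27. For Mki67, Mycn and Ptch1 the difference between the R-type groups did not pass. It was 0.17 ± 0.36 for Mki67 (adjusted p = 0.967), 0.23 ± 0.09 for Mycn (adjusted p = 0.635) and 0.12 ± 0.17 for Ptch1 (adjusted p = 0.939). Igf2 did not pass either (-2.78 ± 0.62, adjusted p = 0.393), but its values did not overlap. Igf2 was at 1.80, 0.51 and 1.12 in the 1.5 Gy tumours and 4.45, 3.13 and 4.20 in the 0.2 Gy tumours. Both groups share the normal cerebella as controls.

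Against the S-type tumours of unirradiated mice, 2209 genes (10.2%) passed, 1084 higher (5%) and 1125 lower (5.19%). Type, dose and age change together in this comparison and cannot be told apart. Without scaling 1994 genes passed, of which 12.5% were higher, and with the 6 arrays alone 50 passed, of which 30.0% were higher, against 49.1% above. Without MB11 1126 passed. Ptch1 was lower in the R-type 1.5 Gy tumours, at -3.15, -2.71 and -3.06 against -1.54, -1.98 and -1.46 in the S-type tumours (-1.31 ± 0.17, adjusted p = 0.00112). Cdkn2a was also lower (-3.72 ± 0.42, adjusted p = 0.000536), and Plagl1 was higher, at 1.71, 1.46 and 1.53 against -1.08, -0.51 and -1.39 (2.55 ± 0.31, adjusted p = 0.00078). Mki67, Mycn, Gli1 and Atoh1 did not pass, with differences of 0.23 ± 0.36, 0.23 ± 0.09, 0.46 ± 0.22 and -0.37 ± 0.35. Mgarp, a mitochondrial protein gene, was higher, at 0.28, 1.82 and 1.43 against -2.61, -3.32 and -3.07 (4.18 ± 0.43, adjusted p = 0.000284). The R-type 0.2 Gy tumours MB7 to MB9 were high as well, at 2.48, 1.15 and 2.20 for Plagl1 and 0.97, 0.75 and 0.84 for Mgarp. Between the R-type groups Plagl1 (-0.38 ± 0.31, adjusted p = 0.864), Mgarp (0.32 ± 0.43, adjusted p = 0.937) and Cdkn2a (-0.89 ± 0.42, adjusted p = 0.716) did not pass. In the S-type 0.2 Gy tumours MB4 to MB6 Plagl1 was at -1.14, -1.09 and -0.60.

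By chromosome, the median change against normal cerebellum was lowest on chromosome 13, which carries Ptch1, at -0.09, and highest on chromosome 6, at 0.41, where MB10, MB11 and MB12 had medians of 0.30, 0.57 and 0.45. On the other chromosomes it was between 0.02 and 0.24. The other tumours shared the high values of chromosome 6. Its median difference was -0.06 from the R-type 0.2 Gy tumours and -0.08 from the S-type tumours of unirradiated mice. Along chromosome 13, 483 tested genes were taken in their order in bins of 20 (23 in the last), and each tumour was set against the mean of the S-type tumours of unirradiated mice. Bins with a median below -0.5 are called low, and this division and limit were chosen after the values were seen. MB10 was low in 7 of 24 bins, MB11 in 14 and MB12 in 10, and MB1, MB2 and MB3 in none, their bins lying between -0.22 and 0.18. The R-type 0.2 Gy tumours had low bins too, MB7 in 12, MB8 in 7 and MB9 in 11. Bins 9 to 13 were low in all 6 R-type tumours, with medians of -0.874 to -0.547 in the 1.5 Gy tumours and -0.971 to -0.583 in the 0.2 Gy tumours. The 7 bins that were low in all 3 of the 1.5 Gy tumours lay between bins 9 and 16, and bin 14, in the same stretch, was -0.40 in MB10. Ptch1 lies in bin 15, where the medians were -0.835, -0.637 and -0.602 in MB10, MB11 and MB12 and -0.218, -0.627 and -0.167 in MB7, MB8 and MB9. Low bins began at bin 9 in MB10, 5 in MB11 and 8 in MB12 and ended at bin 16, 18 and 17, so that among the 1.5 Gy tumours the stretch was longest in MB11. In MB7 and MB9 they began at bin 1 and ended at bins 14 and 13, with bins 4 and 5 not low in either, and in MB8 they ran, as in MB10, from bin 9 to bin 16. The medians outside the low bins were between -0.444 and 0.327 in MB10, -0.105 and 0.30 in MB11 and -0.21 and 0.20 in MB12.

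**Figure D5:**
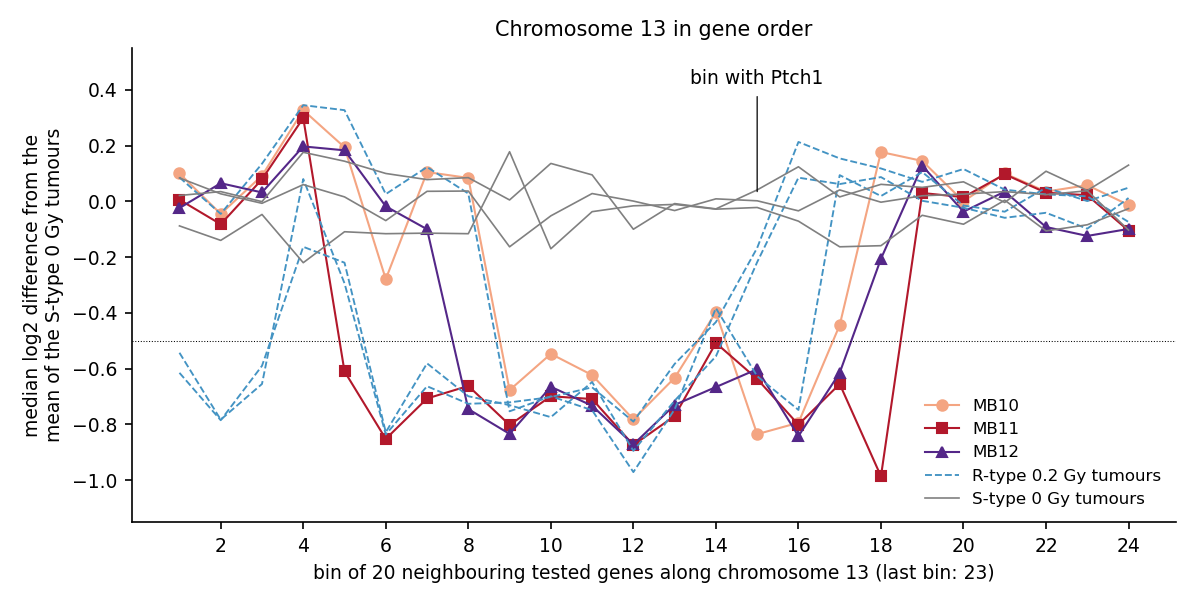
Median log2 signal of each bin of 20 tested genes in their order along chromosome 13, each R-type 1.5 Gy tumour minus the mean of the 3 S-type 0 Gy tumours, with dashed blue lines for the 3 R-type 0.2 Gy tumours, grey lines for the 3 S-type 0 Gy tumours, a dotted line at -0.5 and the bin of Ptch1 marked. MB10 is below -0.5 in 7 bins, MB11 in 14 and MB12 in 10 of the 24, and the 0.2 Gy tumours are below it in 7 to 12.

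Against normal cerebellum the stretch was low too. Its 7 bins were picked by the values of these same tumours, so this is not separate support. The contrast with the rest of the chromosome is in part set by that choice. Over the 140 genes of the 7 shared bins the median change was -0.795, with -0.754, -0.806 and -0.845 in MB10, MB11 and MB12, and 24 genes rose and 82 fell. Over the other 343 genes of chromosome 13 the median was 0.11, with 138 higher and 106 lower. The 9 named genes that differed between the R-type groups stand in the order from 319 to 335, at the end of bin 16 and in bin 17. The medians in bin 17 were -0.444, -0.655 and -0.615 in MB10, MB11 and MB12. They were 0.06, 0.09 and 0.15 in the 0.2 Gy tumours MB7, MB8 and MB9. What lowers the stretch was not tested.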

How the data were processed

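The values of each array were Cy3 spot intensities that the authors extracted, per the file headers, with background subtraction and spatial detrending and no scaling between arrays. Per the submitters' processing notes this was done in Agilent Feature Extraction, version 9.5.1. The deposited series table held log2 values, and its making is not given in the sources used here. Its differences between arrays correlated with those used here at 0.99986 to 0.99999, which fixes direction but not scale. Its columns for MB1 and MB2 summed to 0 within 1e-06 at every probe, so its values stand relative to the mean of these tumours. Its column medians were 0.0912, 0.152 and 0.0996 for MB10 to MB12 and 0.00234, 0.0817 and 0.0889 for the normal cerebella. It was an alternative input only. Arrays for copy number, named in the series title, are not analysed here.

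From the log2 of each processed signal, the 75th percentile of its array was taken off. Control spots and 76 probes with outlier flags were dropped, leaving 41098. Symbols came from RefSeq's gene table through the accession of the probe: 26335 probes had an accession, 24792 of them matched 17154 symbols, and 16306 probes kept the name in the files. The brightest probe represented each of 32628 names, and 21661 names (13424 with a symbol) that were well above background on 3 or more of the 15 arrays were tested. The array annotation is on another build than RefSeq's GRCm38.p6, from which only names, gene order and promoters were used.

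Means of the 5 groups were fitted in limma 3.58.1 under R 4.3.3 (10 residual and 1.71 prior degrees of freedom, eBayes, two-sided, Benjamini-Hochberg at 0.05). The procedure was tested on simulated data. Python 3.11.15 with pandas 2.3.3, numpy 2.4.6 and matplotlib 3.10.9 made the tables and figures. Precision is limited by the number of arrays. Samples, gene lists and tests were chosen with earlier results of these data known. Besides 43 gene lists, sex-linked genes served as a check of labels.

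The rule for naming genes took Ptch1 and 10 other defining genes, the 10 highest and 10 lowest changes among genes above background on all 6 arrays, the 8 highest and 8 lowest bounds, up to 5 members of each list by adjusted p, the 6 highest and 6 lowest against each of the 2 other tumour groups, the 8 widest ranges among the tumours, and the 6 brightest genes with an interval within -0.5 to 0.5. Clone-like names were passed over, and some genes that the rule takes are not reported here. Other genes in the text were chosen after their values were seen. Alternatives were the compared arrays alone, slide as a block or within slides, no scaling, quantile normalization, normexp (offset 50) on median signals, since mean signals were not in the files, other filters, the median of all probes, the series table, and each array left out.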

Additional observations from a re-analysis of the deposited data

Results flagged for a closer look

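Each log2 difference below was tested directly between the R-type 1.5 Gy tumours and another tumour group by limma, passed at an adjusted p of 0.05 over all genes, and came with no overlap of the groups. Against the R-type 0.2 Gy tumours, 6 genes of chromosome 13 were lower, with differences of -1.0 for Ndufs6, -0.97 for Mrpl36, -0.92 for Brd9, -0.84 for Clptm1l, -0.84 for Zfp825 and -0.82 for Pdcd6. None of the 6 passed in limma with the arrays of this comparison alone (adjusted p = 0.226 to 0.282).

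Against the S-type 0 Gy tumours, 5 genes were higher, with differences of 4.18 for Mgarp, 2.88 for Stac2, 2.87 for Gstt4, 2.85 for Rgs13 and 2.55 for Plagl1. Stac2 and Gstt4 were not well above background in any S-type 0 Gy tumour, which bounds them at at least 3.25-fold and at least 2.34-fold higher. Another 5 genes were lower, with differences of -7.88 for Igsf23, -5.82 for Gpat2, -5.22 for Baiap2l1, -4.84 for Prl and -4.06 for Syt4. Igsf23 and Baiap2l1 were not well above background in any R-type 1.5 Gy tumour, which bounds them at at least 48.1-fold and at least 21.2-fold lower. Prl and Syt4 were well above background in 2 of these 3 tumours. With the arrays of this comparison alone, Stac2, Rgs13, Baiap2l1, Prl and Syt4 did not pass in limma (adjusted p = 0.082 to 0.152). None of the genes named against the S-type 0 Gy tumours passed between the R-type 1.5 Gy and the R-type 0.2 Gy tumours.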

How the results depend on the processing

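Against normal cerebellum, limma called 15364 to 16511 genes over the alternatives run and 15364 to 15815 with an array left out, beside 16152. Without scaling 44.0% of the called genes were higher. Of 293 genes followed, 268 passed, and 14 of those lost the call or turned in some setting. Of the genes that had passed, Mdm2 turned without scaling (-0.0362), Syn1 (-1.22), Grin2b (-0.149) and Dnmt3a (0.0655) turned with the median of all probes, and Slc47a1 turned within slide 3 (0.146). The other genes that turned had not passed in the fit reported above. Without scaling they were Ptch1 (-0.0874), Ubb (-0.207), Myl6 (-0.153), Bcas1 (-0.00818), Cd3e (-0.227), Gfap (-0.187) and Mbp (-0.000391). Under quantile normalization Ubb (-0.486) and Myl6 (-0.600) turned and passed as lower. With the median of all probes Trp53 (1.50) turned and passed as higher, and Mbp (-3.67) turned and passed as lower. With an array left out, Tenm3 ranged from -1.71 to 0.668, Zfp239 from -1.69 to 0.307, Gpr17 from -1.82 to 0.114, Chac1 from -0.764 to 1.12, Mdh2 from -0.108 to 0.00873, Nisch from -0.0281 to 0.0297, Cd3e from -0.0577 to 0.181, Kcne2 from -0.409 to 1.14 and Gfap from -0.0419 to 0.197. Of 86 counts over gene lists, 11 moved by over 1.5 times in some setting, each a count of at most 8 genes.

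Against the R-type 0.2 Gy tumours, limma called 15 genes, 0 with the arrays compared alone (1373 at an unadjusted p under 0.05), and 9 to 159 with an array left out: 159 without MB8, 9 without MB9, 25 without MB10 and 27 without MB11. Against the S-type 0 Gy tumours it called 2209, 50 with the arrays compared alone, 1401 without the filter, and 1126 (without MB11) to 2436 with an array left out. The causes were not tested. No paired analysis was possible because of how replicates are numbered, 10 to 12 in the tumours and 1 to 3 in the normal cerebella, other than by slide. Slides 1 to 3 each held a tumour and a normal cerebellum, and with slide as a block 16121 genes passed. Genes not well above background in a group have only bounds.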
